A study of Mus musculus with 33 samples.

Results

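DLN/CD127-/lo Tregs were compared with DLN/naive Tregs, with 3 libraries of each, so that 6 of the 33 bulk RNA-Seq libraries of the series were set against each other and 24536 autosomal genes were tested. Libraries were taken by their titles, and counts over both strands were used. Both groups were CD4+GFP+ cells sorted from the kidney lymph node of DEREG mice, which carry the diphtheria toxin receptor and enhanced GFP under the Foxp3 promoter on a C57BL/6 background, so that GFP marks cells with an active Foxp3 promoter. DLN/CD127-/lo Tregs came from tolerant mice at day 100 after 4000 islet equivalents of porcine neonatal islet cell clusters had been placed under the renal capsule. Those mice had been given MR-1, an antibody against CD154, at 500 µg per mouse on each of several early days and CTLA4-Fc, which binds CD80 and CD86, in a single dose of 500 µg. DLN/naive Tregs came from DEREG mice without a transplant or treatment and were gated on CD4 and GFP without a CD127 gate, whereas the tolerant cells were also gated for low CD127. Transplantation, treatment and the CD127 gate therefore cannot be told apart in this comparison. Per the study, each library was a pool of mice, the naive mice of the lymph node were female and the tolerant mice male, and all DLN libraries were run on a MiSeq. The study describes fewer naive mice for the lymph node than separate pools would need, so that naive libraries may share animals. P-values rest on a spread between libraries that the model shares over genes and subsets, and that spread may be technical. Ages are not given in the sources used here.

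Tregs are CD4+ T cells that restrain immune responses, and the transcription factor Foxp3 holds their identity. They depend on IL-2, which they bind through a receptor that includes CD25, the product of Il2ra, and most of them carry little of the IL-7 receptor chain CD127, the product of Il7r. Resting Tregs recirculate through lymphoid organs with homing receptors such as CCR7, while effector Tregs switch on factors such as Batf, Maf and Prdm1 and chemokine receptors for tissues.

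In the model of all libraries, none of the genes checked here as markers of Tregs differed between the groups past the threshold, an adjusted p under 0.05. Levels are given in CPM, the count of read pairs on a gene scaled to the total of read pairs on genes, with TMM factors. Foxp3 stood at 377, 358 and 206 CPM in the naive libraries and at 166, 249 and 202 CPM in the CD127-/lo libraries. The ranges overlapped, and the log2 fold change of CD127-/lo over naive was -0.61, with a 95% interval from -1.70 to 0.48 and an adjusted p of 0.667 in edgeR's quasi-likelihood test. Il2ra stood at 418, 686 and 379 CPM against 412, 401 and 539 CPM, with a log2 fold change of -0.13 and an interval from -1.14 to 0.87. Il7r, on whose protein the tolerant cells were gated, stood at 202, 788 and 348 CPM in naive and at 266, 784 and 516 CPM in CD127-/lo libraries. Its log2 fold change was 0.23 with an interval from -0.48 to 0.93, so that no lower Il7r mRNA was detectable in the cells gated for low CD127. Ctla4, an inhibitory receptor of Tregs, had a log2 fold change of 0.05 with an interval from -0.89 to 0.99. Ikzf2, which encodes Helios, had one of -0.48 with an interval from -0.92 to -0.05 (adjusted p = 0.4945, edgeR), and without CD127-/lo replicate 3 it passed the threshold, with -0.78 (adjusted p = 0.0275, edgeR). Without naive replicate 3 it was -0.14 and without CD127-/lo replicate 2 it was -0.20 (adjusted p = 0.866 and 0.925, edgeR).

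Libraries differed in ways that the groups do not define. Read pairs on genes ran from 844039 to 1935323 in the CD127-/lo libraries and from 1315808 to 1802858 in the naive ones. CD127-/lo replicates 1 and 2 stood apart, with 19525 and 18413 genes detected against 10784 to 13370 in the other 4 libraries, and with 42.7% and 49.0% of read pairs on no gene against 25.5% to 36.5%. The summed level of olfactory and vomeronasal receptor genes, which sensory neurons use, was 782 and 1542 CPM in those replicates and 119 to 371 CPM in the other 4 libraries. Xist, the RNA of the inactive X chromosome, was at 405, 459 and 1.24 CPM in the naive libraries and Eif2s3y, a Y-linked gene, at 0.71, 0 and 198 CPM. Naive replicate 3 therefore did not match the female mice that the study describes, and all 3 CD127-/lo libraries had Y-linked reads (Eif2s3y at 163 to 590 CPM). Sex thus went partly with the groups, and its part in the results on autosomal genes was not tested.

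**Figure D1:**
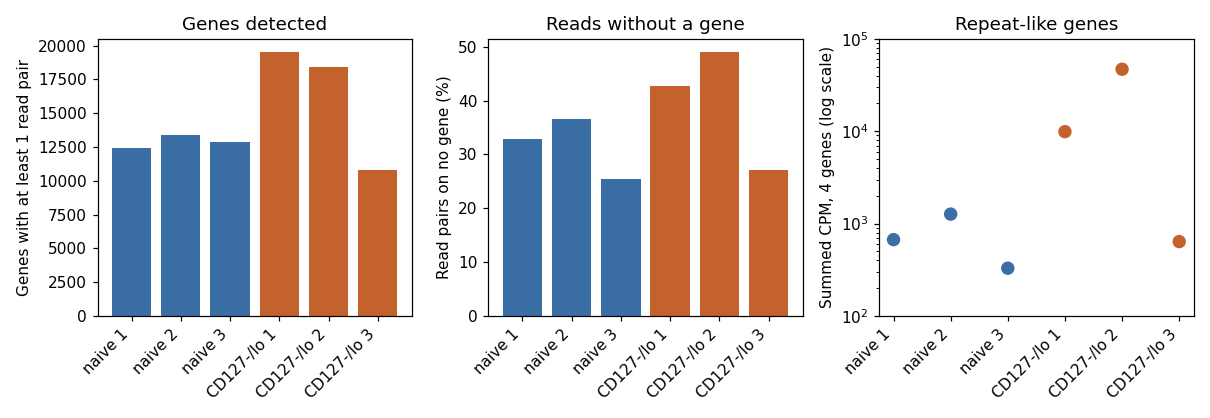
Number of genes with at least 1 read pair, percent of read pairs on no gene, and summed CPM (log scale) of 4 repeat-like genes in each of the 6 libraries. Bars and points are single libraries, blue for naive and orange for CD127-/lo, and CD127-/lo replicates 1 and 2 are the highest of the 6 in every panel.

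In the whole comparison 83 autosomal genes were called at an adjusted p under 0.05, which is 0.338% of those tested, and 2142 had an unadjusted p under 0.05. Of the 83, 56 were higher in CD127-/lo Tregs (0.228% of genes tested) and 27 were lower (0.11%). RLE scaling in place of TMM gave 55 higher and 14 lower and moved the median log2 fold change of all autosomal genes from 0.61 to 0.73. Most called genes were of low or middle level: among the 1978 genes with a mean of at least 100 CPM over the 6 libraries, 7 were called, namely Gm10800, Gm10801, Gm21738, Gm10717, Ighm, Ly6a and Clint1. In those 1978 genes the median log2 fold change was -0.10. The 3 values of one group lay above the 3 of the other in 31 of the 56 genes called higher, against 4.52% of all genes tested, and below them in 21 of the 27 called lower, against 1.86%. The call itself draws on that separation.

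The number of calls rested on the model. The fit of all 33 libraries, whose spread is shared over 11 subsets, gave the 83 calls. The 9 DLN libraries alone gave 6, the 6 compared libraries alone 5, and DESeq2 on all libraries 607. Of the 83 genes, 5 were also called in the 9 DLN libraries, which were Gm10800, Gm10801, Gm21738, Gm10717 and Cr2. All 83 kept their direction there. Leaving out 1 library at a time gave 66 calls without CD127-/lo replicate 2 and 167 without CD127-/lo replicate 1, and 16 of the 83 were called in each of the 6 fits (12 higher and 4 lower). With CD127-/lo replicates 1 and 2 both left out, only 1 CD127-/lo library was left, and 74 of the 83 genes kept their direction.

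**Figure D2:**
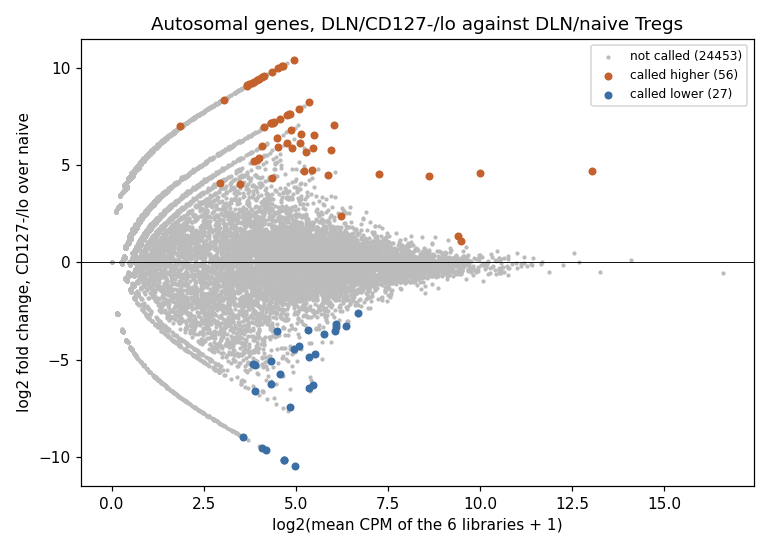
Log2 fold change of CD127-/lo over naive DLN Tregs against the log2 of the mean CPM of the 6 libraries plus 1, for the 24536 autosomal genes tested. Orange points are the 56 genes called higher, blue points the 27 called lower and grey points the rest, and few called genes lie at high levels.

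Several genes of general cell functions were at or near 0 in naive Tregs and well detected in CD127-/lo Tregs. Lasp1, which encodes an actin-binding scaffold protein, stood at 4.97, 1.40 and 0 CPM in the naive libraries and at 174, 101 and 83.4 CPM in the CD127-/lo libraries. All 3 CD127-/lo libraries lay above all naive ones, with a log2 fold change of 5.81 ± 0.98 (SE, adjusted p = 3.59e-05, edgeR). Sumo3, a small ubiquitin-like modifier, stood at 1.42, 0 and 1.24 CPM against 91.6, 96.6 and 75.2 CPM, with a log2 fold change of 6.55 ± 1.17. Ppat, the first committed enzyme of purine synthesis, stood at 0, 2.10 and 0.62 CPM against 83.4, 79.7 and 223 CPM, and its log2 fold change was 7.09 ± 1.44. These 3 genes, with Ten1, Rabggtb, Siva1 and Ctla2a, were called under each of 15 alternatives run on the libraries of all tissues. They were picked out after their values were seen. None of them was called in any fit limited to DLN libraries. The adjusted p of Lasp1 was 0.721 in the fit of all DLN libraries and 0.715 in that of the compared libraries alone (edgeR). For Ppat the same fits gave 0.448 and 0.132. In the spleen, Lasp1 was at 98.3, 141 and 110 CPM in naive and at 93.2, 115 and 89.7 CPM in CD127-/lo Tregs.

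Siva1, which takes part in apoptosis, had 1 read pair in all in the naive libraries and stood at 80.7, 0.996 and 32.7 CPM in the CD127-/lo libraries. The ratio of its pooled counts was 207, with a 95% counting interval from 36.7 to 8217 (exact binomial, counting error only). Ten1, a subunit of the telomere capping complex, had a pooled ratio of 150 (interval 41.1 to 1245) and stood at 112, 1.99 and 54.0 CPM. Rabggtb, a subunit of the enzyme that attaches lipids to Rab proteins, stood at 5.68, 0 and 8.68 CPM in naive and at 236, 3.98 and 92.4 CPM in CD127-/lo Tregs. For these 3 genes, CD127-/lo replicate 2 was close to the naive level, and the naive and CD127-/lo ranges of Rabggtb overlapped.

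In 16 of the 56 genes called higher no naive library held a read pair. Dtwd1, which modifies transfer RNA, was at 0 in all 3 naive libraries and at 38.2, 47.8 and 54.8 CPM in the CD127-/lo libraries. It was at least 23.1-fold higher when the naive libraries are set at 3 counts each (adjusted p = 0.027, edgeR). Its call was lost without naive replicate 1, 2 or 3 or without CD127-/lo replicate 2 (adjusted p = 0.0603 to 0.0799). Brf2, a factor of RNA polymerase III, was at 0 against 25.1, 46.8 and 106 CPM, at least 29.2-fold higher, and Ehhadh, an enzyme of peroxisomal fat oxidation, at 0 against 11.4, 23.9 and 42.5 CPM, at least 12.8-fold higher. Lin52, a subunit of a cell cycle complex, was at 0 against 39.2, 10.9 and 36.8 CPM. Brf2 and Ehhadh lost their call without any 1 library but CD127-/lo replicate 1 (adjusted p = 0.051 to 0.124 for Brf2 and 0.0501 to 0.135 for Ehhadh, edgeR), and Lin52 without naive replicate 1, 2 or 3 (0.102 to 0.1125). Cdc7, a kinase that starts DNA replication, stood at 0, 0.701 and 0 CPM against 9.81, 167 and 17.99 CPM and lost its call without CD127-/lo replicate 2 (adjusted p = 0.053). Sdhaf3, an assembly factor of succinate dehydrogenase, stood at 0, 0 and 0.62 CPM against 24.5, 72.7 and 142 CPM and lost its call without naive replicate 1 or 2 (adjusted p = 0.052 and 0.0532).

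Tollip, Serpinb6b and Gm13012 had no read pair in the naive libraries and uneven levels in the CD127-/lo ones. Tollip, an adaptor that dampens Toll-like receptor signals, stood at 0.545, 3.98 and 127 CPM, and without CD127-/lo replicate 3 its adjusted p was 0.4625 (edgeR). Serpinb6b, an inhibitor of serine proteases, stood at 43.1, 26.9 and 0.818 CPM and lost its call without CD127-/lo replicate 2 (0.0564), and Gm13012, at 68.1, 1.99 and 26.2 CPM, without CD127-/lo replicate 1 (0.0656). All 3 also lost their call without naive replicate 1, 2 or 3 (adjusted p = 0.0954 to 0.117, edgeR). In 21 of the 56 genes called higher, 1 library held over 80% of the summed level of the CD127-/lo group, and that library was replicate 2 in 10 genes, replicate 3 in 8 and replicate 1 in 3. Gm13012 is annotated as antisense, and since the counts were taken without strand its reads cannot be told apart from those of the gene opposite.

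Single genes with known roles in T cells and NK cells were called higher, and they were not tested as a group. Cxcr6, a chemokine receptor of tissue-homing T cells, was at 0 in the 3 naive libraries and at 22.9, 0.996 and 65.4 CPM in the CD127-/lo libraries. All 3 CD127-/lo values were above 0, although replicate 2 had a single read pair, and the group was at least 14.7-fold higher (adjusted p = 0.00146, edgeR). Ctla2a, an inhibitor of cathepsins made by activated T cells, was at 0 in naive and at 0, 27.9 and 43.3 CPM in CD127-/lo libraries, at least 11.7-fold higher (adjusted p = 0.00349, edgeR). Both were called with any 1 library left out. Klrd1, which encodes the CD94 chain of NK cell receptors, stood at 0, 0.701 and 0 CPM against 0, 106 and 50.7 CPM, with a pooled ratio of 184 (interval 32.6 to 7309). Its groups overlapped at 0.

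Il18rap, a chain of the IL-18 receptor, stood at 0.71, 0 and 1.24 CPM against 7.63, 18.9 and 53.1 CPM, with a pooled ratio of 35.8 (interval 11.9 to 176). Without naive replicate 1 or 2 or CD127-/lo replicate 3 its adjusted p rose to between 0.0825 and 0.115. Ly6a, which encodes the activation antigen Sca-1 and is induced by interferon, stood at 253, 502 and 393 CPM against 1046, 450 and 1415 CPM. CD127-/lo replicate 2 lay within the naive range, the log2 fold change was 1.34 ± 0.34 (adjusted p = 0.0362, edgeR), and the call was lost without naive replicate 1 (0.236), naive replicate 3 (0.0657) or CD127-/lo replicate 3 (0.231). Ly6a was 1 of 38 genes of the type I interferon response called, and Cxcr6 1 of 13 chemokine receptors, beside 0.228% of all genes tested that were called higher.

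**Figure D3:**
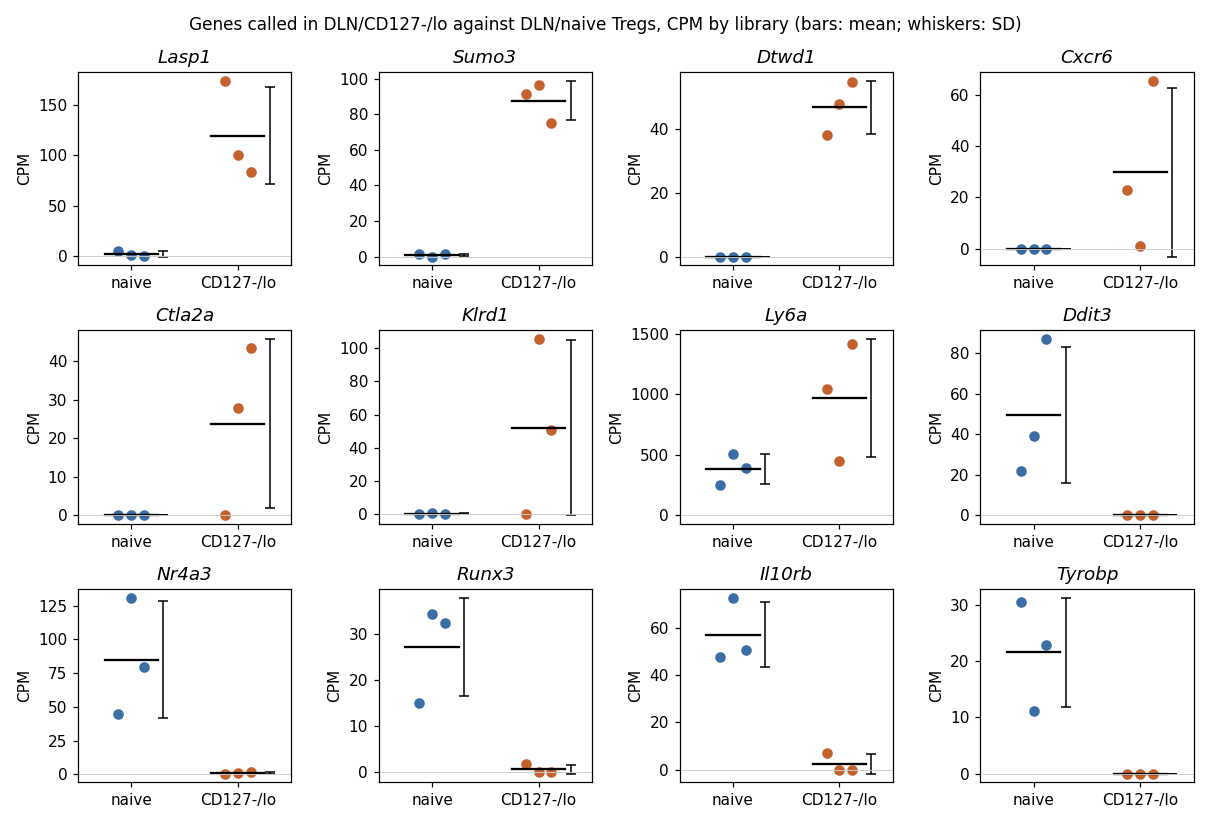
CPM of 12 called genes in each of the 6 libraries, points for single libraries, thick bars for the mean and whiskers for the SD (n = 3). The first 7 genes were called higher and the last 5 lower in CD127-/lo Tregs, and in Cxcr6, Ctla2a and Klrd1 at least 1 CD127-/lo library is near 0.

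Some genes used as markers of B cells and other cell types were called, in most cases with the level in 1 or 2 libraries. Of 22 B cell markers, 6 were called higher (Cd79b, Ms4a1, Fcer2a, Cr2, Ighm and Ighd) and 1 lower (Ly6d), beside 0.228% and 0.11% of all genes tested, with a median log2 fold change of 1.20, or 1.14 with genes at 0 in a group taken at 3 counts per library. For all autosomal genes the same medians were 0.61 and 0. Cr2, the complement receptor CD21 of B cells and follicular dendritic cells, was at 0 in naive and at 19.1, 124 and 0.818 CPM in CD127-/lo libraries, and its adjusted p of 6.29e-07 became 0.0596 without CD127-/lo replicate 2. Ms4a1, which encodes CD20, stood at 0, 1.40 and 0.62 CPM against 1.09, 45.8 and 37.6 CPM. Cd79b, a chain of the B cell receptor, stood at 0, 2.10 and 0 CPM against 74.7, 12.9 and 0 CPM, and Fcer2a, which encodes CD23, was at 0 in 5 libraries and at 43.8 CPM in CD127-/lo replicate 2. Without CD127-/lo replicate 2 the adjusted p of Fcer2a was 1 (edgeR). Different CD127-/lo libraries thus held different B cell genes.

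Ighm, the heavy chain of IgM, stood at 270.5, 648 and 453 CPM against 1345, 1027 and 548 CPM, and Ighd, that of IgD, at 56.1, 11.9 and 1.86 CPM against 41.97, 245 and 84.2 CPM. Ighd lost its call without CD127-/lo replicate 2 (adjusted p = 0.4555, edgeR), and Ighm without naive replicate 1 or 3 or CD127-/lo replicate 1 or 2 (0.0983 to 0.38). Ly6d went the other way, with 36.9, 0 and 45.9 CPM in naive and 0.545, 0 and 0 CPM in CD127-/lo libraries. The summed level of the 22 markers was 766, 863 and 1121 CPM in naive and 1606, 2007 and 1013 CPM in CD127-/lo libraries, so that the ranges overlapped. Single genes of other lists were called, beside 0.338% of all genes tested: Mzb1 of 12 plasma cell markers (81.8 CPM in CD127-/lo replicate 3 and 0 in the other 5 libraries), H2-Eb1 of 12 genes of MHC class II presentation, Klrd1 of 15 CD8 and NK cell markers, Fcer1g higher and Tyrobp lower of 28 myeloid and dendritic cell markers, and Igkv4-59 lower of 226 immunoglobulin variable segments. Of these, Mzb1 had an adjusted p of 1 without CD127-/lo replicate 3, Igkv4-59 of 1 without naive replicate 3, Fcer1g of 0.773 without CD127-/lo replicate 2 and H2-Eb1 of 0.833 without CD127-/lo replicate 3 (edgeR). Cd8a was at 70.1 CPM in naive replicate 3 and at 1.09 CPM or less in the other 5. No gene of the lists for stromal and endothelial, red blood cell and platelet or kidney epithelial cells was called. All 12 kidney epithelial markers had a log2 fold change above 0, with a median of 3.22, or 1.73 with groups at 0 taken at 3 counts per library. Their summed level was low, at 1.42, 5.61 and 4.34 CPM in naive and at 23.4, 78.65 and 4.09 CPM in CD127-/lo libraries, and it was high in CD127-/lo replicates 1 and 2, which also had the most read pairs on no gene. The part of other cells in these calls was not tested, and in bulk samples fewer cells of a type and less RNA per cell cannot be told apart.

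Gm10800, the gene with the lowest adjusted p of the 83, and 3 more called genes were predicted genes that share long stretches of sequence. Gm10800 (chr2:98666547-98667301) stood at 566, 1047 and 274 CPM in naive and at 8363, 39560 and 522 CPM in CD127-/lo libraries. CD127-/lo replicates 1 and 2 were far above the naive libraries and replicate 3 lay within their range. The log2 fold change was 4.68 ± 0.49 (adjusted p = 1.57e-14, edgeR), and the call was lost under the stricter filter on low counts (adjusted p = 0.0838, edgeR). In edgeR's likelihood ratio test the adjusted p was 0.00482. Without CD127-/lo replicate 2 the log2 fold change of Gm10800 was 2.81 (adjusted p = 0.0245, edgeR). Over the alternatives that kept the call, the adjusted p ran from 3.57e-184 to that value. Such small values do not reflect the spread of the CD127-/lo libraries, which ran from 522 to 39560 CPM. Gm10801 (chr2:98662237-98664083), Gm21738 (chr14:19415857-19418930) and Gm10717 (chr9:3025417-3033289) followed, with log2 fold changes of 4.61, 4.46 and 4.55. Without CD127-/lo replicate 2 the adjusted p of these 3 became 0.0972, 0.217 and 0.534, and Gm10717 was also lost without naive replicate 1 (0.0513) or 3 (0.0745). Leaving out both CD127-/lo replicates 1 and 2, which held most of these reads, left 1 CD127-/lo library, and the log2 fold changes of the 4 ran from -0.32 to 0.23. That follows from the choice of the libraries left out, which was made after seeing the data. With the percent of read pairs on no gene as a covariate, the 4 genes had adjusted p-values of 0.383 to 0.818 (edgeR). The 4 genes together took 670, 1267 and 329 CPM in naive and 9892, 46890 and 638 CPM in CD127-/lo libraries, in the 2 libraries with the most read pairs on no gene. In the DLN/CD127hi libraries, which were not part of the contrast, they took 21290, 6473 and 1248 CPM.

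The transcripts of the 4 genes share long stretches, and they are shown for that reason. Each line gives 150 bases of a GENCODE vM21 transcript on GRCm38, 5′ to 3′ on the strand of the gene (minus for Gm10800 and Gm21738, plus for the other two), with capitals for bases in stretches of 20 that occur in transcripts of all 4 genes.
Gm10800: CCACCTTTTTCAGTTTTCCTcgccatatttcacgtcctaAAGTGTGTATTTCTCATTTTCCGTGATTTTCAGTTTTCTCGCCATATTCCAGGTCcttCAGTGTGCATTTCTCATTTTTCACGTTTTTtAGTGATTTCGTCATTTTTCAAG
Gm10801: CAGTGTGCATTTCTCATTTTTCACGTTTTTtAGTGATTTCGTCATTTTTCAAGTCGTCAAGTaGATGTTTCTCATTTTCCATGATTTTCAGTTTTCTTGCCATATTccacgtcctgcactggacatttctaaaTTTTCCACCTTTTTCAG
Gm21738: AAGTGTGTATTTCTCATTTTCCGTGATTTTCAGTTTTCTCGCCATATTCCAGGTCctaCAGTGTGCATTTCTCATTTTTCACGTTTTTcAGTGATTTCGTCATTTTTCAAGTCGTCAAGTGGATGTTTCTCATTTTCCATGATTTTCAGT
Gm10717: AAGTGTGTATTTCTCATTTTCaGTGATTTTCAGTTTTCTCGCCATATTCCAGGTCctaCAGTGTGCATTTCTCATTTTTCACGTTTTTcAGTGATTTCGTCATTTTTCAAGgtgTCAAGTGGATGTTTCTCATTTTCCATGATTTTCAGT
Of the 150 bases, 127 in Gm10800, 121 in Gm10801, 146 in Gm21738 and 142 in Gm10717 lie in such shared stretches. Over the whole transcripts the share was 59.3% to 74.8%, and the single counts of the 4 genes are uncertain where a read can fit several of them. How many reads did so was not tested, and the files count read pairs with several alignments apart from those on genes.

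Of the 27 genes called lower, 4 were called with any 1 library left out, and they were not tested as a group. Ddit3, which encodes the stress factor CHOP, stood at 22.01, 39.2 and 86.8 CPM in the naive libraries and had no read pair in any CD127-/lo library. It was at least 20.9-fold lower (adjusted p = 0.00184, edgeR) and was called with any 1 library left out. Tyrobp, a signalling adaptor of NK and myeloid cells, stood at 30.5, 11.2 and 22.9 CPM against 0 in all 3, at least 9.14-fold lower (adjusted p = 3.36e-04, edgeR), and was also called in all 6 such fits. Capn7, a calpain protease, stood at 62.5, 190 and 115 CPM against 3.82, 16.9 and 16.4 CPM, with a log2 fold change of -3.32 ± 0.69, and Ly6d was the fourth gene called in all of them. In the spleen Ddit3 stood at 41.3, 10.5 and 58.1 CPM in naive and at 45.8, 30.95 and 37.8 CPM in CD127-/lo Tregs.

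Nr4a3, an immediate early gene of T cell receptor signalling, stood at 44.7, 131 and 79.4 CPM against 0.545, 0.996 and 1.64 CPM, with a log2 fold change of -6.31 ± 1.56 (adjusted p = 0.0319, edgeR). It was the only 1 of 29 immediate early genes called, beside 0.338% of all genes tested, and its call was lost without naive replicate 2 (0.0551) or CD127-/lo replicate 1 (0.0621) or 2 (0.163). Runx3, a factor of cytotoxic and type 1 T cells, stood at 14.9, 34.3 and 32.2 CPM against 1.64, 0 and 0 CPM, a pooled ratio of naive over CD127-/lo of 37.1 (interval 12.4 to 183). Il10rb, a chain of the IL-10 receptor, stood at 47.6, 72.9 and 50.9 CPM against 7.09, 0 and 0 CPM. Both lost their call without naive replicate 2 or CD127-/lo replicate 2 or 3 (adjusted p = 0.0566 to 0.152 for Runx3 and 0.0687 to 0.19 for Il10rb). Swap70, a gene of the Treg identity list, stood at 125, 125 and 47.1 CPM against 3.27, 19.9 and 0.818 CPM, with a log2 fold change of -3.67 ± 0.92, and lost its call without naive replicate 1 (0.0503) or CD127-/lo replicate 1 (0.0967) or 3 (0.14). In all of these genes the 3 naive values lay above the 3 CD127-/lo values.

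Genes of general cell functions were called lower as well. Bloc1s6, of lysosome-related organelles, stood at 89.5, 40.6 and 110 CPM in naive against 2.18, 0 and 0 CPM in CD127-/lo libraries, and Hax1, a mitochondrial survival factor, at 55.4, 22.4 and 57.1 CPM against 0.545, 1.99 and 0 CPM. Creg1, a secreted lysosomal glycoprotein, stood at 96.6, 40.6 and 123 CPM against 8.18, 0.996 and 0 CPM. Zhx1 and Zfp961, zinc finger factors, had log2 fold changes of -5.07 and -4.89, and Isoc1 had 1 read pair in all in the CD127-/lo libraries and a pooled ratio of naive over CD127-/lo of 233 (interval 41.4 to 9234). Each of these 6 genes lost its call without 2 or more single libraries. For Bloc1s6 these were CD127-/lo replicates 2 and 3 (adjusted p = 0.0891 and 0.0524), for Hax1 CD127-/lo replicates 1 and 3 (0.121 and 0.148), and for Creg1 naive replicate 3 and CD127-/lo replicates 2 and 3 (0.0501 to 0.155). For Zhx1 and Isoc1 they were naive replicate 3 and each CD127-/lo replicate (adjusted p = 0.0603 to 0.176), and for Zfp961 naive replicate 3 and CD127-/lo replicates 1 and 2 (0.0626 to 0.0777, edgeR). Slc12a7, a potassium chloride cotransporter, varied little within its groups, with 121, 114 and 132 CPM against 16.9, 13.9 and 8.99 CPM and a log2 fold change of -3.19 ± 0.77. It was named after its values were seen and lost its call without CD127-/lo replicate 2 (0.056) or 3 (0.104).

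Genes of resting and effector Tregs were not called one by one. Of 18 genes of the resting and lymphoid homing list 0 were called, which is at the background of 0.338% for a list of this size, 4 had a log2 fold change above 0, and the median was -0.39. For all autosomal genes the median was 0.61, or 0 with groups at 0 taken at 3 counts per library, and it was -0.10 for genes of at least 100 CPM. Their summed level was 3729, 3154 and 2950 CPM in naive and 2494, 2269 and 2853 CPM in CD127-/lo libraries. Of 14 effector Treg transcription factors 0 were called and 11 had a log2 fold change above 0, with a median of 0.61, which did not change with groups at 0 taken at 3 counts per library. Their summed level was 541, 604 and 1137 CPM in naive and 1685, 1193 and 1478 CPM in CD127-/lo libraries. In both lists the summed levels of the groups did not overlap, lower in CD127-/lo Tregs for the resting genes and higher for the effector factors. Of all 38 lists, 3 had sums that did not overlap (7.89%), the third being the red blood cell and platelet markers, with 8.52, 16.1 and 7.44 CPM in naive and 5.45, 4.98 and 1.64 CPM in CD127-/lo libraries. With 3 libraries against 3 the smallest p that an exact permutation test can give is 0.1, so that no such sum could pass the threshold. The spleen libraries, which are not among those compared, gave 4344, 4756 and 3719 CPM in naive and 3064, 3414 and 3719 CPM in CD127-/lo Tregs for the resting genes. For the effector factors they gave 1274, 1419 and 1222 CPM against 1741, 1945 and 1779 CPM.

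The effector sum was carried by few genes. Maf stood at 117, 147 and 483 CPM in naive and at 1035, 378 and 443 CPM in CD127-/lo DLN libraries, with a log2 fold change of 1.31 ± 0.43 (adjusted p = 0.208, edgeR). Id2 stood at 57.5, 62.4 and 183 CPM against 73.6, 280 and 368 CPM, and Batf at 29.1, 0 and 38.45 CPM against 117, 33.85 and 240.4 CPM (adjusted p = 0.268 and 0.262, edgeR). In each of the 3 the groups overlapped. Among the resting genes, Klf2, which keeps homing receptors on, stood at 141, 132 and 112 CPM against 65.9, 85.6 and 5.72 CPM, without overlap and with an adjusted p of 0.46 in edgeR. Icos, a costimulatory receptor of effector Tregs, stood at 190, 518 and 1029 CPM against 1127, 819 and 1035 CPM, and Il10 at 0, 1.40 and 0 CPM against 52.9, 0 and 35.2 CPM, neither of them called.

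**Figure D4:**
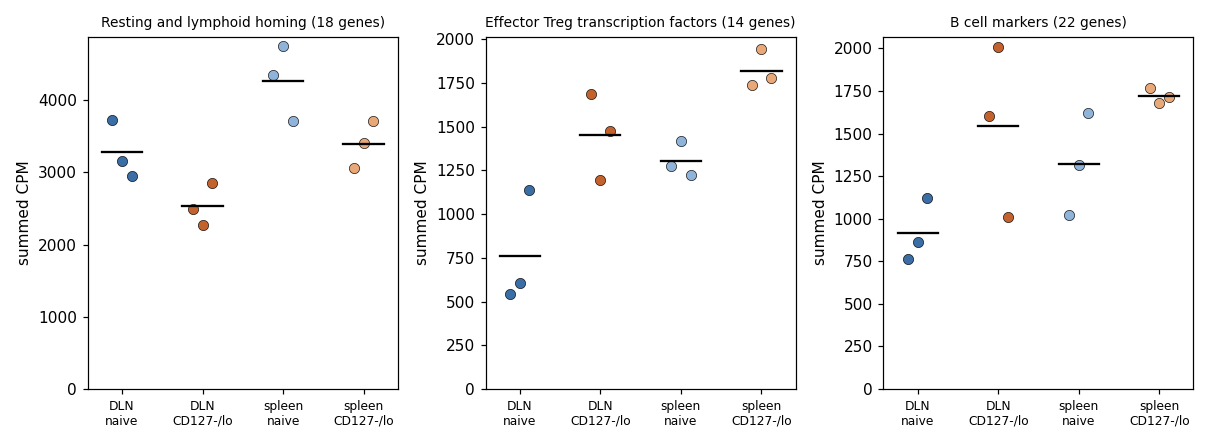
Summed CPM of 3 gene lists in each library of naive and CD127-/lo Tregs of DLN and spleen, with bars for the mean of 3 libraries and axes from 0. In the DLN, the resting list is lower and the effector factor list higher in every CD127-/lo library than in every naive one, as in 3 of 38 lists whose sums do not overlap in either direction, while the B cell marker sums overlap.

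At the share of 0.338% called over all genes, lists of this size would hold about 0 calls, so that a count of 0 says nothing particular about a list. Of 16 tested genes of the Treg identity list 1 was called (Swap70, lower), and the median log2 fold change was -0.13. Of 10 helper lineage transcription factors 1 was called (Runx3, lower), and 0 were called among 21 effector surface and secreted molecules, 12 coinhibitory and 11 costimulatory receptors. The same held for 6 cytokine receptors of the common gamma chain, 12 IL-2 and STAT5 targets, 16 integrins and adhesion genes, 25 genes of the S100, galectin and cytoskeletal list, 22 of T cell receptor signalling and 16 chaperones. In the interferon gamma list 0 of 32 were called, and 3 were higher in CD127-/lo Tregs without overlap, beside 4.52% of all genes tested, among them Psme1, of the proteasome activator, with 283, 308 and 438.5 CPM against 621, 439 and 1247 CPM (adjusted p = 0.284, edgeR). No gene was called among 36 cell cycle, 17 glycolysis, 19 lipid synthesis, 18 apoptosis and 31 proteasome genes, 82 cytosolic ribosomal proteins, 89 genes of oxidative phosphorylation, 105 T cell receptor variable segments, 11 conventional CD4 T cell genes and 6 nuclear long noncoding RNAs. Among these lists, the median log2 fold change ran from -0.51 for the apoptosis genes to 0.67 for glycolysis.

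The same contrast in the spleen gave 15 called autosomal genes (0.0611% of those tested). Of the 83 genes called in the DLN, 29 of the 56 higher and 9 of the 27 lower had the same direction in the spleen, beside 36.5% of all autosomal genes tested. Cxcr6, Ms4a1, Gm10800 and Gm10801 were called in both tissues, each higher in CD127-/lo Tregs of the DLN and lower in those of the spleen. Gm10800 stood at 810, 10640 and 197 CPM in SP/naive and at 206, 1036 and 523 CPM in SP/CD127-/lo libraries, and Gm10801 at 82.04, 1098 and 17.2 CPM against 24.9, 121.5 and 61.9 CPM. In both genes SP/naive replicate 2 was far above the other 5 libraries, whose ranges overlapped. Cxcr6 stood at 32.5, 15.6 and 13.9 CPM in SP/naive and at 0 in all SP/CD127-/lo libraries. In the DLN, 25 of the 27 genes called lower were detected in all 3 SP/CD127-/lo libraries, and 48 of the 56 called higher were detected in all 3 SP/naive libraries. Those spleen libraries were deeper, with 2728119 to 4181135 read pairs on genes. The share of all genes detected in this way was not worked out, so that these counts say nothing particular about the called genes.

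A test of the difference between the DLN and spleen effects called 32 autosomal genes (0.13% of those tested), 21 of them among the 83. The DLN libraries were run on a MiSeq and the spleen libraries on a NextSeq 500. Per the study, the naive mice were female for the lymph node and male for the spleen, while the tolerant mice were male. For these 32 genes the tissue cannot be told apart from the sequencer, and the part of sex was not tested. Malat1, an abundant nuclear noncoding RNA, was one of them, at 175100, 64310 and 111900 CPM in naive and 105900, 66730 and 66980 CPM in CD127-/lo Tregs of the DLN. In the spleen it had a log2 fold change of -2.31, and there the naive libraries stood at 77260, 35030 and 30480 CPM and the CD127-/lo ones at 5803, 9628 and 13400 CPM. In the DLN its log2 fold change was -0.55 (adjusted p = 0.0557 in all libraries and 3.77e-31 in the 9 DLN libraries alone, edgeR). Its CD127-/lo values in the DLN lay within the naive range, so that the adjusted p of the 9 DLN libraries does not reflect the spread of these libraries.

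**Figure D5:**
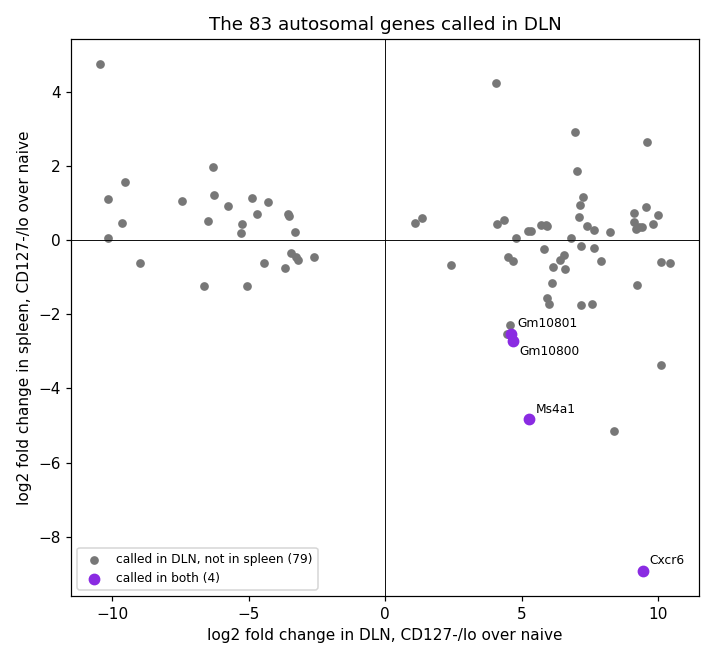
Log2 fold change of CD127-/lo over naive Tregs in the spleen against that in the DLN for the 83 autosomal genes called in the DLN. Purple points are the 4 genes called in both tissues, all in the quadrant higher in the DLN and lower in the spleen.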

How the data were processed

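Libraries were made with SMART-Seq v4 and Nextera XT and read from both ends. The authors used Trim Galore for trimming and STAR for alignment (build mm10 plus EGFP), and deposited raw counts of read pairs per gene. HTSeq is named for counting in the methods, but the columns are laid out as STAR writes them, and the one that ignores strand was used. Annotation was GENCODE vM21 (GRCm38). Read pairs on no gene stayed out of library sizes and were 25.5% to 49.0% of read pairs in the 6 libraries.

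Genes reaching 1 CPM in any of the 33 libraries were fitted with edgeR 4.0.16 (R 4.3.3; TMM, quasi-likelihood test, 1 mean per subset), with Benjamini-Hochberg adjustment over all genes tested and calls at 0.05. The same model gave the test of the DLN effect minus the spleen effect. DESeq2 1.42.0 was an alternative. Intervals of pooled ratios and floors of 3 counts per library cover counting error only, while those of log2 fold changes come from the fitted SE and include the spread between libraries. The procedure was also run on simulated data, with changes placed only in genes of higher level and no library standing apart. It therefore does not show how the procedure fares for low genes or uneven libraries.

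Named genes were the checks, genes called in both the 33-library and 9-library models, up to 12 called genes in each direction, without overlap, by size of the log2 fold change, list genes, and the 8 genes with the lowest adjusted p for the tissue difference; others named were chosen after their values were seen. Some genes that the rule selects are not reported here. Genes and lists were chosen with earlier results of these data known. Same-numbered replicates did not deviate together (correlations -0.01, 0.06 and 0.06), so that numbers were not taken as pairs. The alternatives with the percent of read pairs on no gene and without CD127-/lo replicates 1 and 2 were chosen after seeing the data.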

Additional observations from a re-analysis of the deposited data

Results flagged for a closer look

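The effect of CD127-/lo against naive Tregs differed between DLN and spleen in 32 autosomal genes by an interaction term in edgeR's quasi-likelihood test. Of the 8 with the lowest adjusted p, the log2 fold change in the DLN minus that in the spleen was 7.40 for Gm10800, 7.13 for Gm10801 and 6.997 for Gm21738, whose transcripts share stretches of sequence. The summed level of these genes and Gm10717 was high in DLN/CD127-/lo replicates 1 and 2 (9892 and 46890 CPM) and in SP/naive replicate 2 (12330 CPM), and it was 226 to 1267 CPM in the other 9 libraries of the 2 comparisons. For Malat1 the log2 fold change in the DLN minus that in the spleen was 1.76. For genes with few or no read pairs in a group the fitted difference depends on the prior count and is no bound, and it was 13.48 for Cr2, 18.35 for Cxcr6, 10.10 for Ms4a1 and 13.53 for Fcer2a. The spleen libraries were run on another sequencer than the DLN libraries, and the part of this in the differences cannot be told apart from that of the tissue. Per the study, the naive mice of the spleen were male and those of the lymph node female, and the part of sex was not tested. Groups held 3 libraries each, so that no single library was tested as standing apart.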

How the results depend on the processing

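Against 83 calls, DESeq2 gave 607, the stricter filter 23, the 9 DLN libraries 6, the 6 compared libraries 5, the 9 DLN libraries with a replicate block 5, the percent of read pairs on no gene as a covariate 26, and a log2 fold change over 1.5 with an unadjusted p under 0.01 gave 668. Unadjusted p-values under 0.05 numbered 1300 and 1074 in the 9 and 6 libraries. Leaving out 1 library gave 66 to 167 calls. Against 32 genes for the tissue difference, DESeq2 gave 282, no filter 52, the stricter filter 3, the 12 compared libraries 15, the covariate 2, and leaving out 1 library 17 to 116. The replicate block, for numbers that share only a name, gave 86 calls and 53 for the tissue difference. In the 9 DLN libraries with a replicate block, the log2 fold change of Ikzf2 was -0.52 and passed the threshold (adjusted p = 1.525e-05, edgeR). It did not pass in the 9 DLN libraries without the block (adjusted p = 0.142) or in the 6 compared libraries (0.757, edgeR). With the covariate the log2 fold change of Ikzf2 was -0.19. The cause of these shifts was not tested.

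Without CD127-/lo replicates 1 and 2, which leaves 1 CD127-/lo library, the log2 fold change was -4.17 for Cd79b, 0 for Fcer2a, -3.61 for Fcer1g, -0.29 for Gm10800, -0.32 for Gm10801 and -0.14 for Gm10717. These are the genes checked whose direction did not hold. Their level lay mainly in the replicates left out, so that this outcome followed from the choice. Of the 83 called genes, 74 kept their direction. With 1 library left out, the log2 fold change of Fcer2a ran from 0 to 9.17, the log2 fold change of Mzb1 from 0 to 9.96, the log2 fold change of Fcer1g from -3.59 to 6.71 and the log2 fold change of Igkv4-59 from -11.07 to 0. Depth of 844039 to 1935323 read pairs on genes leaves low genes at few counts.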
